A study of Mus musculus with 6 samples.

Results

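The G1 cyclins, the cyclin-dependent kinases (CDKs) they activate and the inhibitors of those kinases were examined in neural stem cells, quiescent or activated, from the ventricular-subventricular zone (V-SVZ) of adult mice, where new neurons are made along the lateral ventricles. The 10 genes were chosen by symbol: the D-type cyclins Ccnd1, Ccnd2 and Ccnd3, the kinases Cdk4 and Cdk6, the Cip/Kip inhibitors Cdkn1a, Cdkn1b and Cdkn1c, and the INK4 inhibitors Cdkn2c and Cdkn2d. All 10 had at least 1 probe set annotated to a single gene, out of 18193 genes with such a probe set, and together they had 26 of these probe sets. The quiescent group is GFAP::GFP+CD133+CD24- cells and the activated group is GFAP::GFP+CD133+EGFR+CD24- cells, a sort, per the labels, for a GFP reporter driven by GFAP regulatory sequence and for the stem cell surface protein CD133, and against the surface protein CD24. Sorting for EGFR, the receptor for epidermal growth factor, set the activated group apart. There were 3 arrays per group, called biological replicates in the labels, which name no treatment. Not given in the sources used here are the strain and exact age of the mice and how many animals stood behind an array. A GFAP promoter reporter marks astrocytes as well as stem cells, and the groups differ by how they were sorted, so each difference below compares sorted populations.

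D-type cyclins link growth factor signals to the cell cycle. They bind and activate CDK4 and CDK6, which phosphorylate the retinoblastoma protein and its relatives and thereby release E2F factors, the transcription factors of S phase genes. INK4 proteins bind CDK4 and CDK6 and keep the cyclin out, while the Cip/Kip proteins p21, p27 and p57 inhibit CDK2 complexes and also associate with cyclin D complexes. In the adult brain, dormant stem cells rest outside the cycle and activated stem cells divide.

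Values are log2 MAS5 signals, and a difference is activated minus quiescent on that log2 scale, with its SE from a limma fit over 11576 genes (n = 3 arrays per group) and a p-value adjusted by the Benjamini-Hochberg method. A gene was called at an adjusted p under 0.05. Background was set on each array at the 95th percentile of 27 control probe sets for bacterial transcripts, and it lay between 4.52 and 6.10. All 10 genes passed the filter on dim genes, a mean log2 signal of 6.02 over the 6 arrays. Cdkn1c, with a mean of 6.53, was close to that limit and passed through its activated arrays. Each gene is represented by its brightest probe set.

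Of the 10 genes, 6 were higher in activated cells, 0 were lower and 4 were not called. The background for these counts is large, because 17.3% of all tested genes were called higher and 17.6% lower. At an unadjusted p under 0.05 the count of lower genes was also 0. The median difference of the 10 genes was 1.91, against 0.01 over all tested genes. The activated arrays lay wholly above the quiescent arrays for 6 of the 10 genes and below them for 0. Over all tested genes the corresponding shares were 25.1% above and 25.5% below. The genes called were Ccnd1, Ccnd2, Cdk4, Cdk6, Cdkn1c and Cdkn2c, so they comprised D cyclins, both kinases and an inhibitor of each family. The 4 others, Ccnd3, Cdkn1a, Cdkn1b and Cdkn2d, had overlapping arrays.

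**Figure D1:**
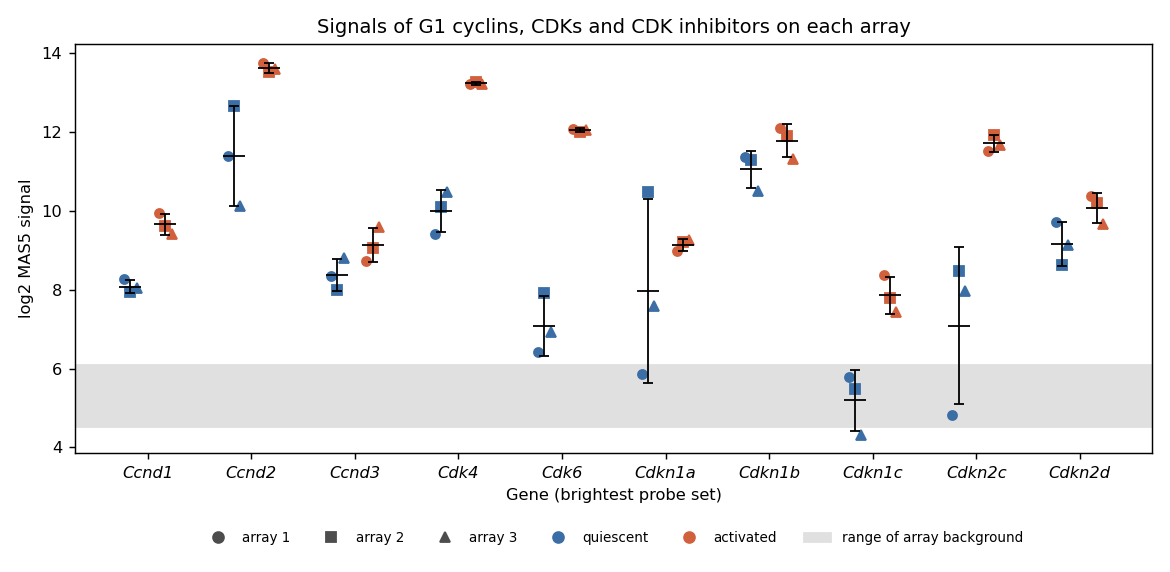
Log2 MAS5 signal of each gene's brightest probe set on each of the 6 arrays, with the mean and SD of the 3 arrays per group as bars and the range of the array backgrounds shaded. Activated arrays lie above all quiescent arrays for Ccnd1, Ccnd2, Cdk4, Cdk6, Cdkn1c and Cdkn2c, and the quiescent arrays of Cdkn1a spread from 5.85 to 10.49.

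The genes behind the sort did not all follow the sort labels. Cd24a, which encodes CD24, read 7.99, 9.31 and 10.48 on quiescent and 13.36, 13.52 and 13.29 on activated arrays, although both groups are labelled CD24-. Its 3 probe sets were all called higher in activated cells, and the brightest differed by 4.13 ± 0.50 (adjusted p = 0.000224). Gfap, whose promoter drives the reporter, read 10.04, 11.32 and 11.20 on quiescent and 6.21, 5.91 and 7.90 on activated arrays, and fell by 4.18 ± 0.58 (adjusted p = 0.000445). Prom1, which encodes CD133, was present in both groups at 11.17 to 11.99 and 9.99 to 10.67, and was called lower in activated cells, by 1.22 ± 0.32 (adjusted p = 0.0133). Egfr, by which the groups were sorted, read 10.64 to 10.92 and 12.77 to 13.05 on its brightest probe set. Its further probe sets were called higher too, except those with differences of -0.01 ± 0.58 and -0.77 ± 0.67, which were not called. These are transcript signals, and surface protein was not measured on the arrays.

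Some properties of the arrays moved with the groups. Background was 5.45 to 6.10 on quiescent and 4.52 to 4.67 on activated arrays, and the mean of the hybridisation controls was 14.01 to 14.94 against 13.65 to 13.73. The gap between the 3′ and 5′ Gapdh controls was 2.59, 2.01 and 1.54 on quiescent and 1.19, 1.51 and 1.41 on activated arrays. The median signal of all other probe sets was 7.08 to 7.41 against 6.44 to 6.89. None of these measures overlapped between the groups. Quiescent array 1 had the highest background, the highest hybridisation controls and the largest Gapdh gap. Markers of other cells moved too. The counts below stand against 17.3% of all tested genes called higher and 17.6% lower. All activated arrays lay above in 25.1% and all quiescent arrays above in 25.5% of tested genes. Of the tested neuroblast markers, among them Cd24a, 7 of 11 were higher and 0 lower in activated cells. The summed linear signal of that list was 2680 to 10800 on quiescent and 37800 to 44100 on activated arrays. Dlx2, Cd24a and Dlx1 had its highest activated means, 13.56, 13.39 and 12.78. Not called were Tubb3 (2.16 ± 0.77), Stmn2 (0.39 ± 1.20), Sp8 (2.51 ± 1.12) and Gad1 (-0.24 ± 0.84). All 9 tested oligodendrocyte markers were lower, with summed signals of 21100 to 81100 and 2380 to 6210. Endothelial markers were lower in 3 of 4 tested cases (sums of 1040 to 3350 and 147 to 239) and pericyte markers in 4 of 4 (5080 to 9140 and 364 to 656). At or below background on all activated arrays were 5 of the 9 measured endothelial and 3 of the 8 measured pericyte markers, and on quiescent arrays 0 of either. Ependymal markers were lower in 3 and higher in 1 of 5 tested cases, and over all 10 measured, 8 had every quiescent array above every activated array. The sums of these 10 were 2070 to 2470 and 1940 to 2790, and without Dnah11, which was higher in activated cells, 2000 to 2340 and 277 to 441. Of 6 measured oligodendrocyte progenitor markers 5 were tested and 1 was higher, with sums of 1350 to 5380 and 3030 to 4200. Of 7 measured mature neuron markers 3 were tested and 2, Rbfox3 and Syn1, were higher, both tested only through their activated arrays. The arrays of 5 of these 7 overlapped, and their sums were 876 to 1250 and 1710 to 3230. Of 8 measured microglial markers 3 had all quiescent arrays above, the 1 tested was not called, and the sums were 432 to 597 and 146 to 187. The stem cell and astrocyte markers were present in both groups, as for Slc1a2, a glutamate transporter at 14.79 to 15.36 on quiescent and 13.56 to 13.78 on activated arrays. Of that list, 9 of 12 genes were lower and 1 higher in activated cells, with sums of 136000 to 225000 and 47500 to 56500. Some marker calls came from genes that passed the dim filter only through the group in which they are high. These were 3 of 3 endothelial, 2 of 4 pericyte, 4 of 9 oligodendrocyte, 2 of 4 ependymal and 1 of 7 neuroblast calls. The part of all these cell markers and of array quality in the differences below was not tested. In such bulk samples, fewer cells of a type and less RNA per cell cannot be told apart.

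The promoters of Cdk4, Cdk6 and Cdkn2c are shown because these genes had the largest differences of the 10. The sequences are the 250 bases before the annotated start, from RefSeq on GRCm38.p6, 5′ to 3′ on the strand of the gene, and 7 of the 10 genes were matched in that table. Capitals mark the E-box CACGTG, the word recognised by Myc family proteins, and the E2F core, searched on both strands as TTCCCGC and its variants with GG, CG or GC in place of the central pair CC. The Cdk4 sequence lies on the plus strand at chr10:127063285-127063534, the Cdk6 sequence on the plus strand at chr5:3343643-3343892 and the Cdkn2c sequence on the minus strand at chr4:109666757-109667006.
Cdk4: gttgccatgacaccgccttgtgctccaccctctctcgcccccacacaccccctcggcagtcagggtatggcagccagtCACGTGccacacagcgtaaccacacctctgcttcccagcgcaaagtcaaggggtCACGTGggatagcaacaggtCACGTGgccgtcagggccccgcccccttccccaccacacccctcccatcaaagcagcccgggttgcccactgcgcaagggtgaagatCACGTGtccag
Cdk6: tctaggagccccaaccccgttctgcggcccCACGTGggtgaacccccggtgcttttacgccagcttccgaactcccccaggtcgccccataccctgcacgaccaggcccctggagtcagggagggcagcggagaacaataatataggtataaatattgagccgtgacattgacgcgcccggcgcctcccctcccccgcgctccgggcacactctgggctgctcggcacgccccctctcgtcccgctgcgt
Cdkn2c: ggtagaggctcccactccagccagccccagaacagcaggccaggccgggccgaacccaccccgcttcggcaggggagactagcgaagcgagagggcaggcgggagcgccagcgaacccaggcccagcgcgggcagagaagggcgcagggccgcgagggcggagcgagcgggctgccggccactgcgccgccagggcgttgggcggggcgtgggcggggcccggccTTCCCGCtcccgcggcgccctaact

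The Cdk4 promoter held 4 E-boxes, which begin 172, 118, 98 and 11 bases before the start, and the Cdk6 promoter held 1. Of all 32851 promoters of that length 6.02% held at least 1 E-box. The Cdkn2c promoter shown held 1 E2F core, beginning 25 bases before the start, which 7.89% of all promoters had. A further Cdkn2c start, on chromosome 4 from 109665373 to 109665622, held neither word. Neither word was found in the promoters of Ccnd3, Cdkn1a, Cdkn1b or Cdkn2d. The sequences shown held 64.4% (Cdk4), 66% (Cdk6) and 77.2% (Cdkn2c) G or C, against a median of 52.4% over all promoters. The shares above were not matched for this content. The words GGGCGG and TTTGAA were searched as well, and 32.7% and 16% of all promoters held them. GGGCGG occurred 1 time in the Cdk4, 0 times in the Cdk6 and 3 times in the Cdkn2c promoter shown. It was also found for Ccnd3, Cdkn1a, Cdkn1b and Cdkn2d. TTTGAA was found in no promoter of the genes matched. A match of letters describes the sequence only.

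Among the D cyclins, Ccnd1 and Ccnd2 were higher in activated cells and Ccnd3 was not called. Cyclin D1 and cyclin D2 are the partners of CDK4 and CDK6 that respond to growth factors in many neural progenitors. Ccnd1 read 8.26, 7.93 and 8.05 on quiescent arrays 1 to 3 and 9.95, 9.62 and 9.41 on activated arrays 1 to 3. The arrays of each group were close together and the groups were separated by 1.14. The difference was 1.57 ± 0.37 (adjusted p = 0.00805), a ratio of 2.98. Both further Ccnd1 probe sets were called higher in the fit over probe sets, the brighter by 2.57 ± 0.46. The dimmer had quiescent readings of 2.31, 6.77 and 5.79, the first far below background, and was at least 4.12-fold higher (adjusted p = 0.0303). It passed the dim filter only through its activated arrays. Averaging the 3 probe sets gave a Ccnd1 difference of 2.48 (adjusted p = 0.00327).

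Ccnd2 read 11.38, 12.65 and 10.13 on quiescent and 13.76, 13.52 and 13.59 on activated arrays. Quiescent arrays were spread widely (SD 1.26) and activated arrays were not (SD 0.12), and the groups did not overlap. The difference was 2.24 ± 0.50 (adjusted p = 0.00638). It was 1.61 without quiescent array 3, the lowest, and 2.87 without quiescent array 2, the highest, and was called in each case. All 7 Ccnd2 probe sets were called higher, and the brightest, used here, had the smallest difference of them. The other differences ran from 2.90 ± 0.44 to 4.04 ± 0.36, the last with quiescent readings of 8.57, 10.06 and 9.37 and activated readings of 13.42, 13.55 and 13.17.

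The probe sets of Ccnd3 disagreed. Cyclin D3 completes the D-type family and has the same kinase partners. The brightest read 8.35, 8.0 and 8.81 on quiescent and 8.74, 9.06 and 9.59 on activated arrays, so that the highest quiescent array was above the lowest activated array. Its difference was 0.74 ± 0.42 (adjusted p = 0.186), with a 95% interval of -0.18 to 1.66. The second in brightness read 7.21, 7.56 and 8.38 on quiescent and 4.94, 4.67 and 4.53 on activated arrays. Here all quiescent arrays were higher, and the activated value on array 3 was below background. Signal of this probe set fell by 3.00 ± 0.64 in activated cells in the fit over probe sets (adjusted p = 0.00529), or at least 7.88-fold with that array raised to background, and it was lower under each scaling tried. It passed the dim filter only through its quiescent arrays, the group in which it is high. The dimmest probe set was too dim to test, at 4.12, 3.35 and 5.31 against 5.11, 2.34 and 3.04. Within arrays, the brightest probe set minus the second went from 0.67 ± 0.41 (SD) to 4.42 ± 0.63 (two-sided exact permutation p = 0.1, the smallest that 3 against 3 arrays can give), a comparison made after the values were seen. With the mean of the 3 probe sets the Ccnd3 difference was -1.01 (adjusted p = 0.189). Which transcripts each probe set detects was not tested, so no direction is given for Ccnd3.

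Both kinase partners were higher in activated cells. Cdk4 encodes the CDK that most cycling cells use with D cyclins. It read 9.42, 10.10 and 10.49 on quiescent and 13.22, 13.26 and 13.22 on activated arrays, with 2.73 between the groups. The difference was 3.23 ± 0.30 (adjusted p = 6.28e-05), a ratio of 9.38, and 97.5% of all tested genes had a lower difference. The further Cdk4 probe sets differed by 2.90 ± 0.24 and 3.95 ± 0.36, both called. The brightest Cdk4 probe set is of a type that can share probes with other transcripts, and the last of these is not. The activated arrays of the first were nearly equal, at 12.90, 12.92 and 12.91.

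Cdk6, the paralogue of Cdk4, had the largest difference among the 10 genes. It read 6.41, 7.91 and 6.92 on quiescent and 12.08, 12.01 and 12.04 on activated arrays. The quiescent arrays varied (SD 0.76), the activated arrays were nearly identical (SD 0.04), and 4.10 separated the groups. The difference was 4.96 ± 0.41 (adjusted p = 3.93e-05), a ratio of 31.2, and 99.5% of tested genes had a lower difference. The other Cdk6 probe sets were at or below background on 2 of 3 quiescent arrays each, and their activated means were at least 46.1-fold and 27-fold higher, where values below background were raised to it. The dimmest passed the filter only through its activated arrays. Cdk4 minus Cdk6 within an array was 3.01, 2.19 and 3.57 on quiescent and 1.14, 1.25 and 1.17 on activated arrays. The gap between both kinases was smaller on every activated array. That shift of -1.73 had an exact permutation p of 0.1, adjusted to 0.267 over the 8 pairs of family members compared. With 3 arrays per group, such a test cannot go under 0.1.

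**Figure D2:**
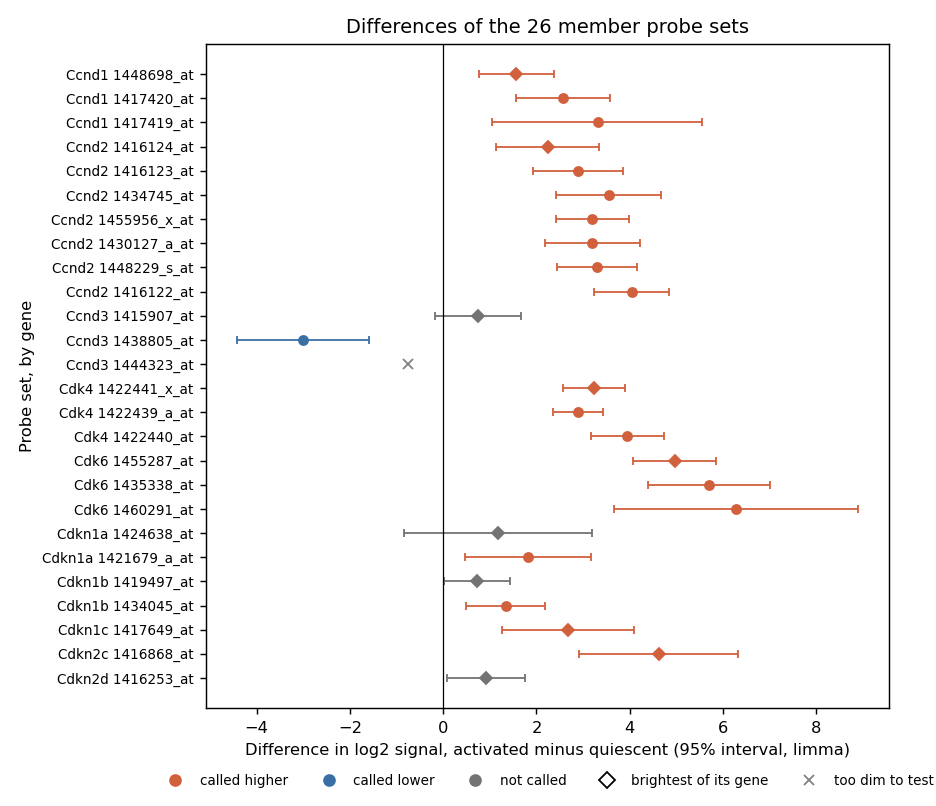
Difference in log2 signal, activated minus quiescent, for each of the 26 probe sets, with its 95% interval from limma as a bar. Of 25 tested, 20 were called higher and 1, of Ccnd3, lower, and 4 were not called.

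At the level of probe sets, 20 of the 25 tested were called higher and 1 lower. Among all 22608 probe sets in that fit 15.6% were called higher and 16.3% lower. Probe sets of 1 gene share its transcripts and are not independent, and 7 of the 20 belong to Ccnd2.

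The Cip/Kip inhibitors differed in how clear their changes were. Cdkn1c encodes p57, an imprinted inhibitor associated with stem cell dormancy in several tissues, and it was higher in activated cells. Cdkn1c read 5.78, 5.47 and 4.32 on quiescent arrays, of which 2 were at or below background, and 8.36, 7.80 and 7.44 on activated arrays. The groups were separated by 1.66. The difference was 2.68 ± 0.63 (adjusted p = 0.0084), and with quiescent values raised to background the activated mean was at least 4.57-fold higher. Cdkn1c has 1 probe set, so the direction rests on it alone.

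Cdkn1b encodes p27, an inhibitor whose protein level is set largely by degradation. Its brightest probe set read 11.37, 11.28 and 10.51 on quiescent and 12.11, 11.91 and 11.32 on activated arrays. Activated array 3 fell just under quiescent array 1, so the groups overlapped at their edge. The difference of 0.72 ± 0.32 was not called (adjusted p = 0.106, 95% interval 0.01 to 1.44). The dimmer probe set read 9.81, 10.17 and 11.39 against 11.74, 11.87 and 11.76, without overlap, and was called higher by 1.34 ± 0.38 (adjusted p = 0.0223). That call was lost when any 1 array other than quiescent array 3 was left out (adjusted p = 0.0617 to 0.0769). The mean of both probe sets was called too, with a difference of 1.03 (adjusted p = 0.00604).

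Cdkn1a encodes p21, the inhibitor induced by p53. It read 5.85, 10.49 and 7.59 on quiescent and 8.97, 9.21 and 9.25 on activated arrays. Quiescent array 2 was above every activated array and quiescent array 1 was below background, while the activated arrays lay close together. The difference was 1.17 ± 0.92 (adjusted p = 0.342), with a 95% interval of -0.86 to 3.20. Leaving out quiescent array 2 gave 2.43, which was called (adjusted p = 0.0163), and leaving out quiescent array 1 gave 0.10. Its dimmer probe set read 5.46, 7.62 and 6.69 against 8.74, 8.04 and 8.45 and was called by 1.82 ± 0.61 (adjusted p = 0.0433), a call lost without any 1 array other than quiescent array 2 (adjusted p = 0.0534 to 0.138).

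The INK4 inhibitors were Cdkn2c, which encodes p18, and Cdkn2d, which encodes p19. Cdkn2c read 4.82, 8.47 and 7.97 on quiescent and 11.51, 11.93 and 11.68 on activated arrays. Quiescent array 1 was below background, and the highest quiescent array was 3.05 under the lowest activated array. The difference was 4.62 ± 0.78 (adjusted p = 0.00131), and with that array raised to background the activated mean was at least 18.3-fold higher. Without quiescent array 1 the difference was 3.49, and without quiescent array 2 it was 5.31, called in both cases. Among the 10 genes only Cdk6 had a larger difference.

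Cdkn2d read 9.71, 8.62 and 9.13 on quiescent and 10.37, 10.19 and 9.66 on activated arrays. Quiescent array 1 was above activated array 3, and the difference of 0.92 ± 0.38 was not called (adjusted p = 0.0879, 95% interval 0.07 to 1.77). It was called without quiescent array 1 (1.20, adjusted p = 0.0438). Within arrays, Cdkn2c minus Cdkn2d was -4.90, -0.15 and -1.16 on quiescent and 1.15, 1.74 and 2.02 on activated arrays. All 3 activated arrays were above the quiescent arrays, a shift of 3.71 (exact permutation p = 0.1, adjusted p = 0.267). It was 3.28 with values raised to background and 2.29 without quiescent array 1, on which Cdkn2c was below background.

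**Figure D3:**
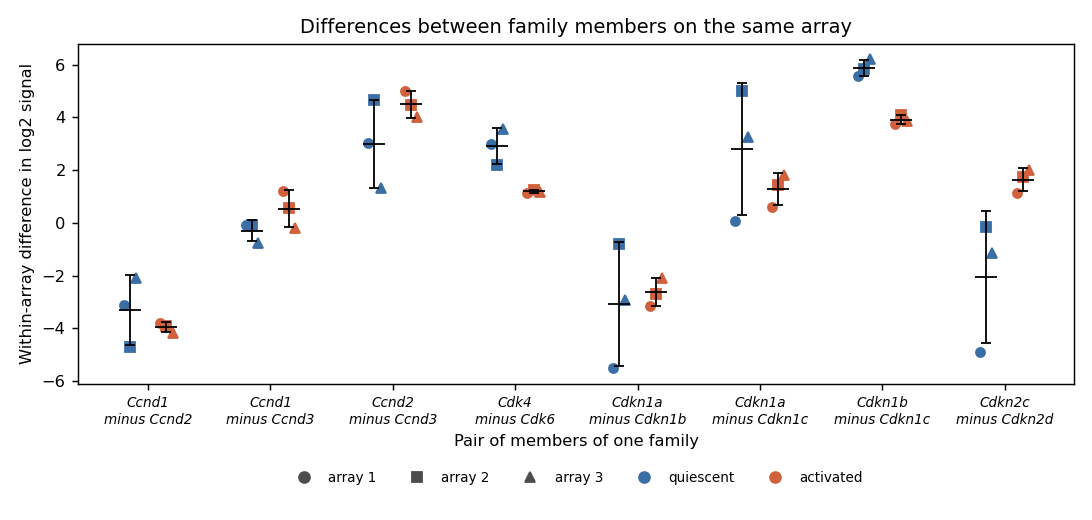
Difference in log2 signal between the brightest probe sets of 2 family members on the same array, by group, with the mean and SD of 3 arrays as bars. The groups do not overlap for Cdk4 minus Cdk6, Cdkn1b minus Cdkn1c and Cdkn2c minus Cdkn2d.

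A difference taken within an array is not altered by a shift of the whole array. Of the 8 pairs of family members, 3 had groups that did not overlap: Cdk4 with Cdk6, Cdkn2c with Cdkn2d, and Cdkn1b with Cdkn1c. The last went from 5.87 ± 0.30 (SD) to 3.92 ± 0.18, a shift of -1.95 (exact permutation p = 0.1, adjusted p = 0.267). Since Cdkn1c was at or below background on 2 quiescent arrays, the quiescent value is not exact, and with values raised to background the shift was -1.47. Among the D cyclins the groups overlapped for each pair, with shifts of -0.66 for Ccnd1 minus Ccnd2, 0.83 for Ccnd1 minus Ccnd3 and 1.49 for Ccnd2 minus Ccnd3 (exact permutation p = 0.5, 0.3 and 0.3). Cdkn1a overlapped with both of its relatives, with shifts of 0.44 against Cdkn1b and -1.51 against Cdkn1c (exact permutation p = 0.8 and 0.4). None of the 8 passed, and with 3 arrays against 3 none could.

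Scaling changed calls near the threshold. When arrays were shifted to a common median, the median difference of all tested genes was 0.57 and calls were 74.8% higher, against 49.6% with the deposited scaling. Of all tested genes 30.5% were then called higher, against 17.3% with the deposited scaling. Every gene shifts alike under such a rescaling. The 6 called genes were called there as well, and Ccnd3, Cdkn1b and Cdkn2d were added, with differences of 1.30, 1.28 and 1.47. With arrays shifted to the hybridisation controls, the median was 0.66, 76.4% of calls were higher, and Cdkn1b (1.37) and Cdkn2d (1.56) were added. There 26.4% of all tested genes were called higher. For Ccnd1, Ccnd2, Cdk4, Cdk6, Cdkn1c and Cdkn2c the direction and the call held under each scaling tried. The common median and the hybridisation controls raised the difference of every gene, so they could not reverse a higher one. With quantile normalization the differences of these 6 genes ran from 1.71 for Ccnd1 to 5.23 for Cdk6.

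The other genes of the pathway were taken from lists on the CDK2 arm, the retinoblastoma and E2F genes, accessory proteins, protein turnover and transcriptional regulators. Of 66 listed genes 60 were tested, and 25 were higher and 3 lower in activated cells, with a median difference of 0.83. These counts and those of each list stand against the 17.3% higher and 17.6% lower over all tested genes. Of the 28 called genes, 3 passed the dim filter only through the group in which they were high. In the axis of cyclin E, cyclin A and CDK2, which follows cyclin D activity, 7 of 9 tested genes were higher and 0 lower, with a median of 2.78. The count of higher genes was 5 to 6 when 1 array was left out and 6 with values raised to background. Ccne1, Ccne2 and Ccna1 had 1, 1 and 2 quiescent arrays at or below background. Cdk1, the mitotic kinase, was higher by 4.24 ± 0.36 (adjusted p = 4.30e-05). Cdc25c, a phosphatase that activates it, was higher by 4.62 ± 0.42 (adjusted p = 5.36e-05), and the S phase and G2 cyclin Ccna2 by 4.47 ± 0.50 (adjusted p = 0.000138). The members not called were Cdc25a and Cdc25b, at 1.20 ± 0.57 and 0.57 ± 0.41.

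Of 13 retinoblastoma and E2F genes, a list that includes the retinoblastoma family substrates of CDK4 and CDK6, 8 were higher and 0 lower (median 1.94). The repressors E2f7 and E2f8 were at least 13.4-fold and 26.8-fold higher (adjusted p = 0.0002 and 0.000337), with 1 and 2 quiescent arrays at or below background. E2f7, with a quiescent mean of 5.61, was tested only through its activated arrays. Rbl1, which encodes the retinoblastoma relative p107, read 6.44, 7.46 and 6.82 on quiescent and 10.58, 10.20 and 10.28 on activated arrays. Rb1 itself differed by -0.01 ± 0.30 (adjusted p = 0.987, 95% interval -0.68 to 0.66) and Rbl2 by -0.73 ± 0.32 (adjusted p = 0.103). The 3 retinoblastoma family genes thus gave different values, with Rbl1 alone called.

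Among 5 tested genes of the CDK-activating kinase and of kinase chaperones, 2 were higher, the chaperone Hsp90aa1 by 1.51 ± 0.23 (adjusted p = 0.000817) and its kinase-specific partner Cdc37 by 1.05 ± 0.35 (adjusted p = 0.041). The Cdc37 call was lost without any 1 array other than quiescent array 2 (adjusted p = 0.0548 to 0.161). It was also lost when probe sets were averaged (difference 0.41, adjusted p = 0.298), without a dim filter (adjusted p = 0.053), with quantile normalization (adjusted p = 0.0507), without a variance trend (adjusted p = 0.0563) and with the replicate block (adjusted p = 0.0579). The kinase subunits were not called: Cdk7 differed by -0.96 ± 0.35, Ccnh by 0.36 ± 0.26 and Mnat1 by 1.07 ± 0.46.

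Genes for the turnover of D cyclins and Cip/Kip proteins were higher in 6 and lower in 1 of 15 tested cases (median 0.55). Cks1b, an adaptor that lets the ligase subunit Skp2 bind p27, was higher by 3.45 ± 0.57 (adjusted p = 0.00116), or by 4.71 with its brightest plain probe set, its relative Cks2 by 5.23 ± 0.62 (adjusted p = 0.000196), and Dtl, which directs p21 to degradation, was at least 18.2-fold higher (adjusted p = 0.000923). Fbxo4, an F-box protein linked to cyclin D1, fell by 2.08 ± 0.56 (adjusted p = 0.0163). The Fbxo4 call was lost with a common median (adjusted p = 0.0538), with the hybridisation controls (adjusted p = 0.116) and when its probe sets were averaged (adjusted p = 0.307). It was also lost when quiescent array 2 or activated array 1 was left out (adjusted p = 0.0656 and 0.062).

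Of 17 tested regulators of D cyclin and inhibitor transcription, 2 were higher, 2 lower and 13 not called (median 0.29). Over all tested genes 17.3% were called higher and 17.6% lower. The count of higher regulators depended on the scaling, with 6 under a common median and 7 with the hybridisation controls. Mycn, a Myc family factor, was higher by 3.08 ± 0.35 (adjusted p = 0.000161), or by 1.48 when its probe sets were averaged (adjusted p = 0.00982). Bmi1, a Polycomb repressor of the Cdkn2a locus, was higher by 2.09 ± 0.31 (adjusted p = 0.000629). Myc itself differed by 0.50 ± 0.56 and was not called (adjusted p = 0.509). Foxo1, a forkhead factor that can induce Cip/Kip genes, fell by 1.85 ± 0.40 (adjusted p = 0.00559), a call lost when its probe sets were averaged (-0.98, adjusted p = 0.0559) and with its brightest plain probe set, one not marked as sharing probes (-0.93, adjusted p = 0.0597). Stat3, a factor activated by cytokine signals, fell by 1.44 ± 0.36 (adjusted p = 0.0111), or by 2.32 with its brightest plain probe set, a call lost under common-median scaling (adjusted p = 0.0977) and scaling to the hybridisation controls (adjusted p = 0.202). Of the remaining INK4 genes, Cdkn2b read 6.68, 8.32 and 6.14 on quiescent and 8.88, 7.83 and 8.28 on activated arrays (difference 1.28 ± 0.63, adjusted p = 0.135). Cdkn2a was too dim to test, at 6.65, 6.19 and 5.71 against 5.79, 4.28 and 5.41.

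**Figure D4:**
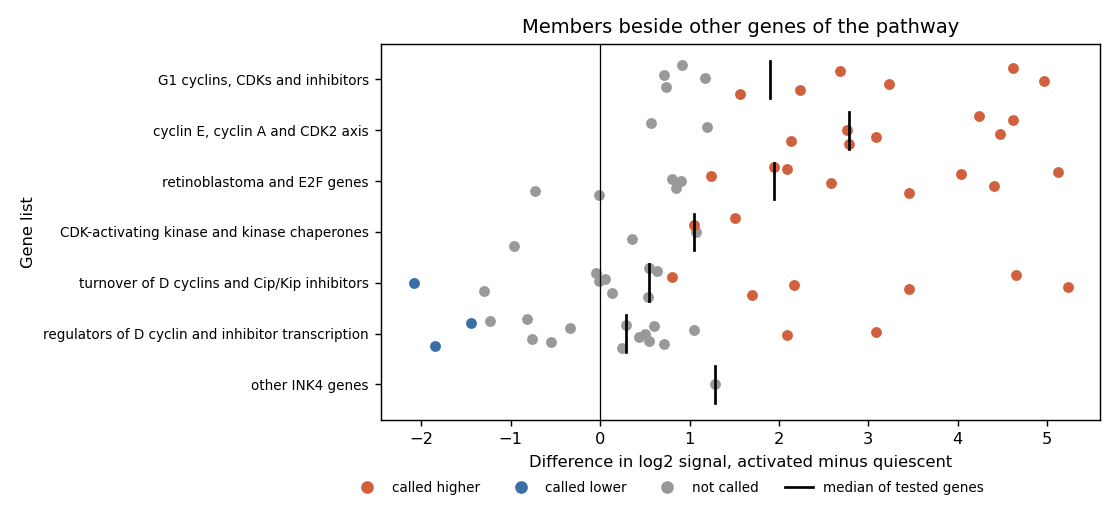
Difference in log2 signal, activated minus quiescent, of each tested gene of the G1 cyclin, CDK and inhibitor group and of 6 lists of other pathway genes, coloured by call, with the list median as a black bar. The medians run from 0.29 for the transcriptional regulators to 2.78 for the cyclin E, cyclin A and CDK2 axis, with 1.91 for the 10 genes.

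Each of the 10 genes was set against the 69 other tested genes of the group and the pathway lists by Pearson correlation of log2 signal over the 6 arrays, which share the split between quiescent and activated cells. The closest gene to Cdk6 was Rbl1 (r = 0.998), to Cdk4 Hsp90aa1 (r = 0.995), to Cdkn2c Cks2 (r = 0.992) and to Cdkn1c Gsk3b (r = 0.983). Ccnd1 was closest to Cdk1 and Ccnd2 to E2f2, both with r = 0.976, and Cdkn2d to Ddb1 (r = 0.965). Values were lower for Cdkn1b with Gsk3b (r = 0.927), Ccnd3 with Zbtb17 (r = 0.906) and Cdkn1a with Rnf123 (r = 0.788), the gene whose quiescent arrays differed most. These values describe 6 arrays and were not tested.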

How the data were processed

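RNA of 3 quiescent and 3 activated samples was isolated (miRNeasy kit), turned into cDNA with Nugen Pico amplification and labelled with biotin for one-colour Affymetrix arrays, per the labels' protocols. The deposited values are log2 MAS5 signals, per the submitters' processing notes, on arrays whose linear 2% trimmed mean is 500.0. Not given in the sources used here are the MAS5 version and detection calls. MAS5 scaling removes differences in total RNA, and values near background are noisy.

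Of 45101 probe sets, 64 controls were left out. The platform annotation pairs 34945 with 1 gene, 932 with several and 9160 with none, and symbols were updated by Entrez identifier in RefSeq (99.4% found). The brightest probe set stood for a gene, and genes at or above the 40th percentile of mean signal were tested with lmFit and eBayes with a trend (limma 3.58.1, R 4.3.3), adjusted by Benjamini-Hochberg over all genes, or over all single-gene probe sets. Only 3 arrays per group limit the precision. The limma p-values set a group difference against the spread between arrays, moderated over all genes in the fit. Since the number of animals behind an array is not given, that spread need not be the spread between animals. Within-array pairs used two-sided exact permutation tests. Figures used matplotlib 3.10.9.

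The 10 genes, lists and rules were chosen with earlier results of these data known. Named pathway genes were the 3 called genes of smallest adjusted p per list and direction. Rb1, Rbl2, Myc, the genes of the sort, Dnah11, Rbfox3, Syn1 and the neuroblast markers named were chosen after values were seen. So were Ccne1, Ccne2, Ccna1 and the genes of the CDK2 arm and CDK-activating kinase not called. The promoter words and the comparisons of single probe sets of Ccnd3, Cdkn1a and Cdkn1b were chosen then as well. Alternatives were 2 dim filters, 2 probe set rules, 3 scalings, pseudocounts of 16 and 64, values raised to background, 2 variance models, the replicate block and each array left out.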

Additional observations from a re-analysis of the deposited data

How the results depend on the processing

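Under the 19 alternatives to the main processing, Ccnd1, Ccnd2, Cdk4, Cdk6 and Cdkn2c kept their direction and call in all 19, and Cdkn1c in the 18 in which it was tested, since it was below the 60th percentile filter. The number of the 10 genes called higher was 5 under that filter and 6 to 9 elsewhere, and 0 were called lower. Of all tested genes, 20.8% were called higher under that filter and 10.4% to 30.5% over all alternatives. The 9 genes were called with a common median, where that share was 30.5%. The Ccnd3 difference reversed to -1.01 with the mean of its probe sets, which differ in direction. Leaving out 1 array gave 6 to 7 higher genes, and the shift of Cdkn1a minus Cdkn1b reversed to -0.78 without quiescent array 1, with leave-one-out values of -0.78 to 1.59. Over all genes, 3527 were higher and 1191 lower with a common median, and 3059 and 943 with the hybridisation controls, against 2004 and 2040. Leaving out 1 array gave 1313 to 2440 higher and 1540 to 2176 lower, the lowest higher count without activated array 2. Transcriptional regulators counted 6 higher and 1 lower with a common median and 7 and 1 with the hybridisation controls, and the CDK-activating kinase list then had 4 higher. The labels do not say whether same-numbered arrays were paired. Deviations from the group means correlated at 0.06, -0.02 and 0.03 for same-numbered arrays. For other pairs of arrays the values were -0.08 to 0.05. With 3 arrays per group such values cannot show whether samples shared animals or a sort. With the replicate block 6 of the 10 genes were called higher and 0 lower, and 1955 genes were higher and 1979 lower. Of the probe sets singled out, that of Cdkn1a lost its call with the block (adjusted p = 0.0597) and without a dim filter (adjusted p = 0.0551), and that of Cdkn1b without a variance trend (adjusted p = 0.0611). The Ccnd3 probe set with lower signal was too dim to test under the 60th percentile filter and with values raised to background. Other causes of these changes were not tested. Signals near background, as for Cdkn1c and Cdkn2c in quiescent cells, limit how exactly their ratios are known.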
